A study of Mus musculus with 2 samples.

Results

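Glutamate and GABA, the main excitatory and inhibitory transmitters of the cortex, are packed into synaptic vesicles by one group of carriers and cleared from the extracellular space by another. The 9 genes described here (Slc1a1, Slc1a2, Slc1a3, Slc1a4, Slc17a6, Slc17a7, Slc17a8, Slc6a11 and Slc32a1) were chosen by symbol, and all 9 were found among 55536 gene entries, of which 22028 are protein-coding. They were measured by stranded total RNA sequencing, with ribosomal RNA reduced and ERCC spike-in RNAs added, in the left cortex of 2 male B6CASTF1/J mice. This strain is the F1 hybrid of a B6 and a Cast parent, and the labels give an age range of 8 to 10 months. There was 1 group with no treatment, allele or time point to compare, and the animals, numbered 2 and 4, are biological replicates 1 and 2. Their donor label is identical, and only the animal numbers mark them as separate mice.

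The libraries held 26925514 (replicate 1) and 30143684 (replicate 2) expected counts, which are read counts shared out among the transcripts a read fits. Levels are in TPM, a relative transcript abundance on a scale corrected for transcript length and therefore usable between genes. Values after ± are SDs over the 2 animals (n = 2 throughout), and no p-value is given because the smallest exact sign-flip p with 2 animals is 0.5. The tissue carried the cortical excitatory neuron marker Tbr1 (48.23 and 50.39 TPM) and the astrocyte marker Aqp4 (40.47 and 38.17 TPM). Striatal markers were present too, with Ppp1r1b at 258.58 and 286.86 TPM, and the choroid plexus transcript Ttr stood at 711.18 TPM in replicate 1 against 2.40 TPM in replicate 2. In such bulk tissue, fewer cells of a type and less RNA per cell cannot be told apart.

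After release, glutamate is taken up mostly by astrocytes through sodium-coupled carriers of the Slc1 family, is turned into glutamine there, and returns to neurons as glutamine. Neurons load glutamate into vesicles through the Slc17 vesicular transporters and GABA through the Slc32a1 product. Slc6 carriers such as that of Slc6a11 take GABA back up. Slc1a4 belongs to the Slc1 family by sequence, but its product mainly exchanges neutral amino acids such as alanine, serine and cysteine.

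The Slc1a2 gene (GLT-1 or EAAT2, the main glutamate carrier of astrocytes) lies on the plus strand of chr2:102658659-102790784 in mm10 and is annotated with 12 transcripts, 7 of them protein-coding. Its protein-coding transcripts differ in where the coding sequence begins and in how it ends. These are the coding sequences in which the forms described further on differ, read from the GENCODE M21 transcripts. The levels given for the forms are deposited values of whole transcripts, and reads over these bases were not counted. The upstream start, in an exon whose coding bases are chr2:102659285-102659301, begins transcripts Slc1a2-202 and Slc1a2-204. The downstream start, at chr2:102706476-102706483 and 47.2 kb further along, begins Slc1a2-201 and Slc1a2-203. In both lines the capitals are the bases of the alternative first coding exon, and the lower case is the start of the exon that follows in both.
Slc1a2 upstream start: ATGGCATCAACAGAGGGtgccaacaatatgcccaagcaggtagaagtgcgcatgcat
Slc1a2 downstream start: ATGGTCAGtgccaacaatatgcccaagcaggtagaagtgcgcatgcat
At the other end the 3 forms share an exon and then part. Slc1a2-202 and Slc1a2-203 are spliced to the last exon (chr2:102781463-102781534, stop codon included). Slc1a2-201 and Slc1a2-204 read on past the splice site (chr2:102777656-102777694), the ending known as GLT-1b. The short transcript Slc1a2-212 continues in a cassette exon (chr2:102780717-102780752). Capitals mark the bases that belong to one ending, up to and including the stop codon, after 30 shared bases in lower case.
Slc1a2 spliced to the last exon: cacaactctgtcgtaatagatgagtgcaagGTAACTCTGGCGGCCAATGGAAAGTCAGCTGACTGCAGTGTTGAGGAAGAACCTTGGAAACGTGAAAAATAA
Slc1a2 reading on: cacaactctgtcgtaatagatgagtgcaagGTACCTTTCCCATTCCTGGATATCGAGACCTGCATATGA
Slc1a2 through the cassette exon: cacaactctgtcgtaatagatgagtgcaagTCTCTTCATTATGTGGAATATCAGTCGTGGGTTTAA
The shared exon is followed directly by GTA when the splice site is read through, so the last-exon and read-on forms both continue with the same 3 letters and differ from the next base on.

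The most abundant RNA of the 9 genes was that of the main astrocytic glutamate carrier. The level of Slc1a2 was 788.07 TPM in replicate 1 and in replicate 2 it was 819.73 TPM (803.9 ± 22.4), above 99.8% of protein-coding genes. It was the 38th and 34th protein-coding gene by TPM in the 2 animals and the 7th gene by expected counts in both once ribosomal RNA was left out. Its 121934 and 136187 counts were 0.494% (exact 95% binomial interval 0.491% to 0.497%) and 0.496% (0.494% to 0.499%) of all gene counts, intervals that cover counting error only. Slc1a3 (GLAST or EAAT1, the other astrocytic glutamate carrier, on the minus strand of chr15:8634124-8710764) stood at 134.57 and 154.30 TPM (144.4 ± 13.95). Both genes were far above the median protein-coding gene, at 4.02 TPM.

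The neuronal member of the uptake group was much lower, with Slc1a2 exceeding it 17.5-fold ± 0.986. Slc1a1 (EAAC1 or EAAT3, on the plus strand of chr19:28835049-28913960) carries glutamate and cysteine into neurons and stood at 46.95 and 45.09 TPM (46.0 ± 1.32). Slc1a4 (ASCT1, on the minus strand of chr11:20302180-20332713) stood at 16.44 and 17.45 TPM (16.9 ± 0.714). Among the 5 glutamate carriers of the Slc1 family in the plasma membrane, Slc1a2 made up 80.4% ± 0.604 of the summed TPM, Slc1a3 14.4% ± 0.886 and Slc1a1 4.61% ± 0.295. The other two, Slc1a6 and Slc1a7, which are known from cerebellar Purkinje cells and from retina, made up 0.499% ± 0.0227 and 0.0177% ± 0.00982. Slc6a11, a plasma membrane GABA carrier of astrocytes on the plus strand of chr6:114131241-114249952, stood at 43.84 and 51.29 TPM (47.6 ± 5.27), a level close to that of Slc1a1.

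Among the vesicular carriers Slc17a7 was far ahead. Slc17a7 (VGLUT1, the main vesicular glutamate carrier of cortical excitatory neurons, on the plus strand of chr7:45163949-45176142) stood at 441.18 and 469.76 TPM (455.5 ± 20.2). It held 96.8% ± 0.451 of the summed TPM of the 3 vesicular glutamate transporters. Slc17a6 (VGLUT2, the main form in thalamus and other subcortical nuclei, on the plus strand of chr7:51622006-51671119) stood at 14.16 and 12.15 TPM (13.2 ± 1.42), a share of 2.80% ± 0.413. Slc17a8 (VGLUT3, found in small sets of neurons that include serotonin neurons, on the minus strand of chr10:89574020-89621253) was the lowest of the 9 genes, at 1.89 and 1.74 TPM (1.81 ± 0.106) and 145 expected counts in each library. Slc32a1 (VGAT, which loads GABA and glycine into vesicles of inhibitory neurons, on the plus strand of chr2:158610767-158615748) stood at 57.70 and 65.37 TPM (61.5 ± 5.42).

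Slc17a6 and Slc17a8 are known from sets of neurons that include thalamic and serotonin neurons, respectively, and markers of these 2 kinds were measured too. The 4 thalamic markers summed to 21.4 and 20.0 TPM. Ramp3 stood at 8.88 and 7.52 TPM, Prkcd at 7.58 and 7.60 TPM, Tcf7l2 at 4.40 TPM in both animals and Lhx9 at 0.50 and 0.44 TPM. Their log2 ratios of normalised counts, replicate 1 over replicate 2, were 0.28, 0.27, -0.03 and 0.07, that of Lhx9 from 31 and 33 counts. The ratio of Slc17a6 was 0.21. Of the serotonin markers, Tph2 stood at 0.32 and 0.35 TPM and Fev had 0 counts in both libraries. Their part in the Slc17a6 and Slc17a8 levels was not tested.

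**Figure D1:**
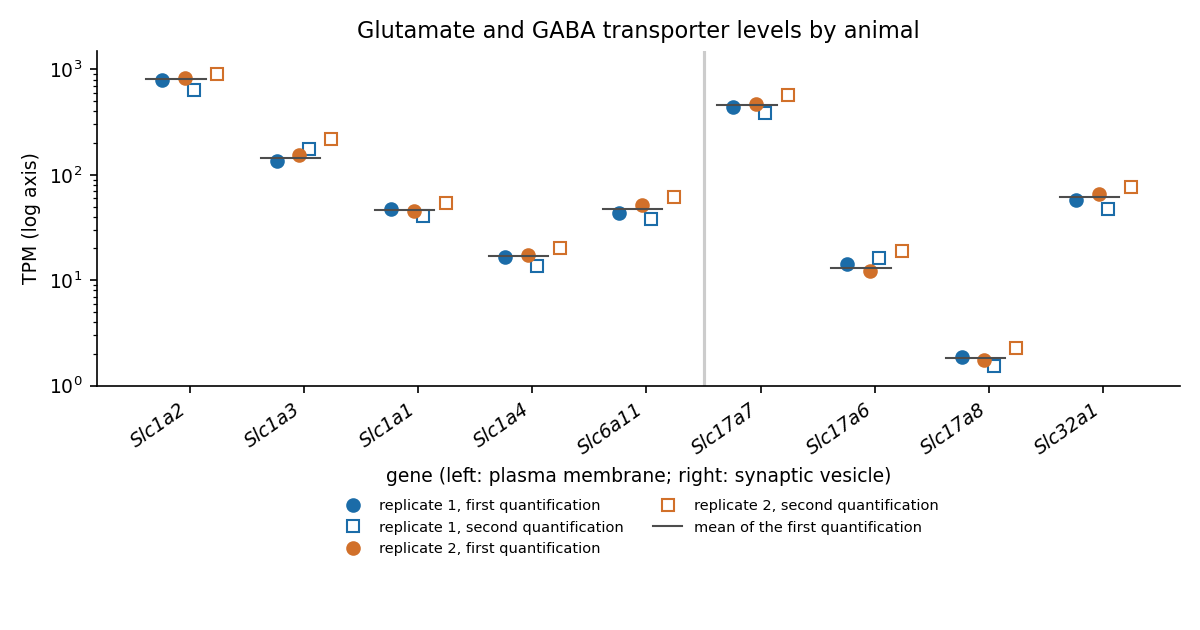
TPM on a log axis for the 9 transporter genes, with plasma membrane carriers left of the grey line and vesicular carriers right of it; filled circles are the first quantification (blue replicate 1, orange replicate 2), open squares the second, and the short line the mean of the circles. Slc1a2 (803.9 TPM on average) and Slc17a7 (455.5 TPM) lie highest and Slc17a8 (1.81 TPM) lowest, and in the second quantification every orange square lies above its blue one.

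Ordered by mean TPM, the genes ran Slc1a2, Slc17a7, Slc1a3, Slc32a1, Slc6a11, Slc1a1, Slc1a4, Slc17a6 and Slc17a8. In 7 of the 8 neighbouring pairs the values of the 2 animals did not overlap between genes and the gap was larger than the larger SD. The exception was Slc6a11 above Slc1a1, whose values overlapped and whose gap of 1.54 TPM was within the SD of 5.27 TPM, so that these neighbours do not differ beyond their spread. Replicate 1 alone put Slc1a1 (46.95 TPM) above Slc6a11 (43.84 TPM). The narrowest gap that held was Slc1a4 over Slc17a6, at 3.79 TPM against an SD of 1.42 TPM, and it turned round in the second quantification described further on.

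Ratios of their TPM describe the balance between carriers. Slc1a2 exceeded Slc1a3 5.86-fold in replicate 1 and 5.31-fold in replicate 2 (5.58 ± 0.384 on the TPM scale). By expected counts, which are not corrected for length, the same ratio was 13.3 ± 0.443. The RNA of Slc1a2 is long: its leading transcript has 11595 bases, 9250 of them in the 3′ untranslated region, against 4163 bases for that of Slc1a3. Slc17a7 exceeded Slc17a6 31.2-fold and 38.7-fold (34.9 ± 5.31), and exceeded Slc32a1, the GABA loader, 7.65-fold and 7.19-fold (7.42 ± 0.325). Slc1a2 exceeded Slc17a7 1.79-fold and 1.75-fold (1.77 ± 0.0292), the steadiest of these between the animals in relation to its size.

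Differences between the animals in the 9 genes stayed within the range of other genes. Ratios are replicate 1 over replicate 2 of counts scaled by TMM, a normalisation that assumes most genes do not differ, with a prior count of 2. Higher by over 25% in one animal than in the other (a log2 ratio past 0.32 in either direction) were 0 of the 9 genes, beside 13.0% of the 14163 genes that averaged 50 or more normalised counts (1835 genes), and past 2-fold were 0 of the 9 beside 0.861% (122 genes). With 9 genes, a share of 0 is near that background. The median of the 14163 genes, which are of any class, differed 1.08-fold in either direction, and 5 of the 9 genes differed more than that. They were led by Slc17a6, above 74.2% of the 14163 genes, and Slc6a11, above 72.1%. Slc1a2 was closest to equality, with a log2 ratio of 0.008 (95% counting interval -0.003 to 0.019), a smaller difference than in all but 3.88% of the 14163 genes.

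The widest difference with replicate 1 higher was in Slc17a6, with 833 and 810 expected counts and a log2 ratio of 0.21 (0.07 to 0.35), which is 1.15-fold. The widest with replicate 2 higher was in Slc6a11, with 3066 and 3945 counts and a log2 ratio of -0.20 (-0.26 to -0.13). Slc32a1 (2738 and 3375 counts) had a log2 ratio of -0.13 (-0.21 to -0.06) and Slc1a1 (2817 and 2912 counts) one of 0.12 (0.04 to 0.19). Slc17a8, with 145 counts each, had a ratio of 0.17 whose interval ran from -0.17 to 0.51, too wide at this depth to place it on either side. Slc1a3, Slc1a4 and Slc17a7 lay at -0.06 (-0.10 to -0.02), -0.04 (-0.15 to 0.08) and -0.04 (-0.07 to -0.02). The intervals of 6 genes, all but Slc1a2, Slc1a4 and Slc17a8, lay clear of 0 under this scaling, while the spread among animals cannot be judged from 1 pair. Scaled to the spike-ins instead, the median of all genes with at least 50 normalised counts moved to a log2 ratio of 0.07. Slc1a3, Slc1a4 and Slc17a7 changed sign, to 0.01, 0.03 and 0.03. The intervals of Slc1a3 (-0.03 to 0.05) and Slc32a1 (-0.14 to 0.01) then took in 0, and that of Slc1a2 (0.07 to 0.09) no longer did. Those of Slc1a1, Slc17a6 and Slc6a11 kept clear of 0 on the same side under both scalings.

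**Figure D2:**
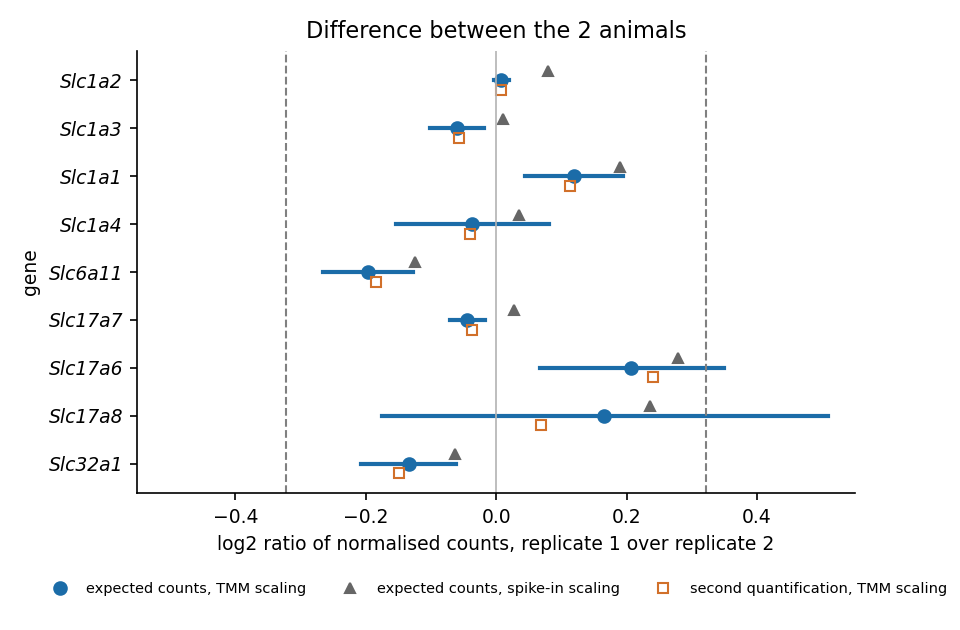
Log2 ratio of normalised counts, replicate 1 over replicate 2, for each transporter gene: circles with bars are TMM-scaled expected counts with the exact 95% counting interval, triangles the same counts scaled to the spike-ins, open squares the second quantification, and dashed lines a difference of 25%. All points lie between the dashed lines, from -0.20 for Slc6a11 to 0.21 for Slc17a6 among the circles, while the bars of Slc17a6 and Slc17a8 reach past the upper line.

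The choroid plexus markers did differ between the libraries, at a summed 731.1 TPM in replicate 1 against 6.23 TPM in replicate 2 over 4 genes, all 4 higher in replicate 1. The transporter genes did not move with them by 25%, and the 7 astrocyte markers summed to 632.2 and 635.8 TPM. Most of that sum was Aldoc (333.34 and 360.13 TPM, log2 ratio -0.05). The other 6 had log2 ratios above 0, from 0.03 for Sox9 to 0.39 for Gjb6, the 1 past 25%, while Slc1a3 and Slc6a11 had ratios below 0. Their part in the member levels was not tested. The part of choroid plexus RNA was not tested either.

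A single transcript led each gene, and it was the same transcript in both animals and by both quantifications for all 9. Slc32a1 has 1 annotated transcript, with 2 exons. Slc17a7-201 held 97.26% and 97.06% of the TPM of its gene, Slc6a11-201 98.16% and 99.56%, and Slc17a8-201 100% in both. The second quantification gave 10.9% of Slc17a8 in replicate 2 to Slc17a8-202, from 7.08 estimated counts, and 0 in replicate 1.

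Slc1a2-202, the transcript with the upstream start and the last exon, held 74.15% and 73.36% of Slc1a2 TPM but 96.9% and 97.2% of its counts. These scales part over transcripts much shorter than its 11595 bases, for which few counts weigh much once corrected for length. Slc1a2-204, of 2093 bases, took 5.42% and 7.32% of TPM with 1.23% and 1.68% of counts. Slc1a2-205, a piece of 510 bases with no annotated coding end, took 9.70% and 10.42% of TPM with 551.46 and 670.61 counts, and close to 0 in the second quantification. Slc1a2-212, of 567 bases, took 0.90% and 1.57%, and 6.03% and 7.56% in the second.

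Among the 4 transcripts of Slc1a2 that hold a whole coding sequence from either start to either of the first 2 endings shown above, the upstream start made up 93.3% and 97.7% of TPM, and 91.3% and 92.8% in the second quantification. By counts it made up 98.7% and 99.5%. The piece Slc1a2-205 begins beside the downstream start, at position 102706356, and is not among these 4. With it the downstream start made up 16.2% and 13.3% of TPM in the first quantification, against 6.72% and 2.34% without it, and 1.71% and 0.941% of counts. The ending that reads on past the splice site made up 9.11% and 10.9% of TPM, and 7.28% and 8.44% in the second quantification. By counts it made up 1.78% and 2.09%, and 1.30% and 1.45% in the second. The cassette ending divided differently: set beside those 4 transcripts, Slc1a2-212 made up 1.04% and 1.87% of TPM in the first quantification and 6.49% and 7.99% in the second.

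Which start went with that ending was not settled by the tables. The first quantification gave most of it to Slc1a2-204, with the upstream start, at 42.72 and 60.02 TPM, and less to Slc1a2-201, with the downstream start, at 18.53 and 13.67 TPM. The second gave Slc1a2-201 40.2 and 55.8 TPM, and Slc1a2-204 close to 0 TPM in replicate 1 and 10.0 TPM in replicate 2. Without Slc1a2-205, the downstream start made up 8.70% and 7.15% of TPM in the second. Slc1a2-203, the fourth of these transcripts, stayed under 5% of the gene and is named only to complete the set.

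**Figure D3:**
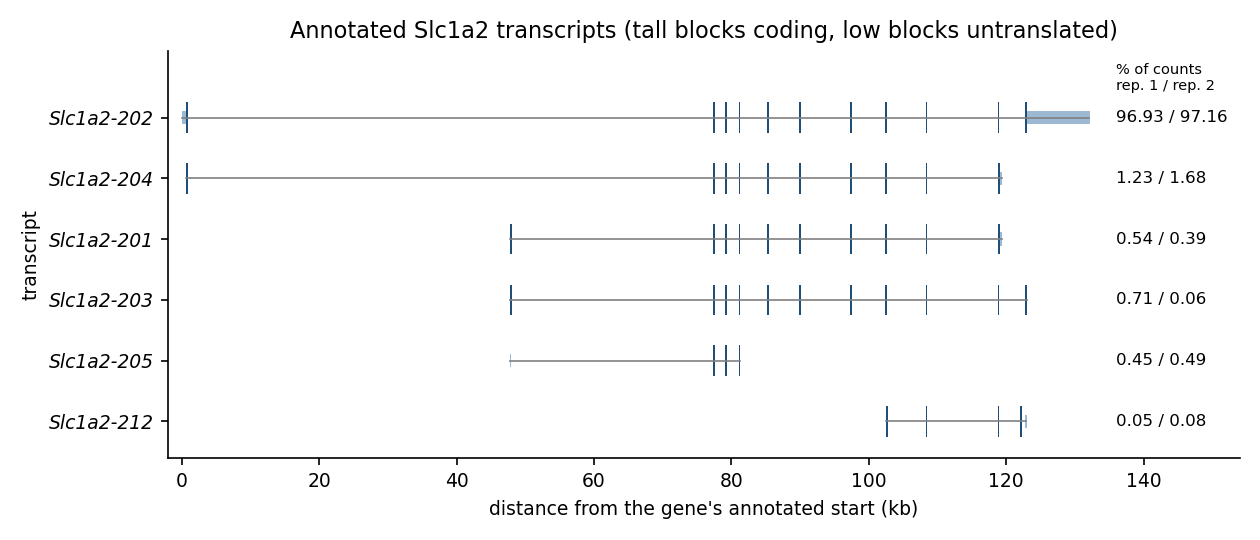
Exons of 6 annotated Slc1a2 transcripts by distance from the annotated start of the gene in kb, with tall blocks coding and low blocks untranslated (the shortest exons are drawn wider than scale); the numbers at the right are percent of the expected counts of the gene in replicates 1 and 2. Slc1a2-202 spans the whole gene and holds 96.93% and 97.16% of the counts, and the downstream start lies 47.2 kb into the gene beyond the upstream one.

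In Slc17a6 and Slc1a3, transcripts outside the protein-coding class took part of the TPM from few counts. Slc17a6-201 held 79.66% and 83.64% of Slc17a6 TPM, and Slc17a6-202, a processed transcript of 655 bases, held 19.67% and 15.60% from 27.21 and 20.14 counts. In the second quantification Slc17a6-202 reached 44.9% and 41.9%, so that the coding transcript stood at 8.88 and 11.0 TPM there. Slc1a3-201 held 89.76% and 83.32% of Slc1a3, and the retained-intron transcript Slc1a3-204, of 469 bases, held 5.97% and 10.55%. In the second quantification it held 35.5% and 18.9%.

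Slc1a1 had most of its remainder in transcripts that keep an intron. Slc1a1-201 held 84.05% and 80.99% of TPM, and retained-intron transcripts held 15.95% and 19.02%, among them Slc1a1-203 (5.71% and 7.28%) and Slc1a1-202 (3.41% and 5.68%). Slc1a1-204 held 1.60% and 1.10%, and 7.83% and 3.48% in the second quantification. All 5 together held 8.81% and 11.2% of its counts, the largest share of counts outside coding transcripts among the 9 genes.

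The 2 transcripts of Slc1a4 were divided differently in the 2 animals and in opposite directions by the 2 quantifications. Slc1a4-202 held 95.32% in replicate 1 and 75.89% in replicate 2, and Slc1a4-201 the other 4.68% and 24.11%. The second quantification gave Slc1a4-202 63.8% in replicate 1 and 83.4% in replicate 2. The transcripts share 3872 bases and the same splice sites, and Slc1a4-202 adds 29 bases at the 5′ end and 25 at the 3′ end. The annotation gives them different start codons all the same, for 532 and 452 codons, so few exon bases tell these transcripts apart. The total of the gene, given above, does not depend on the division.

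**Figure D4:**
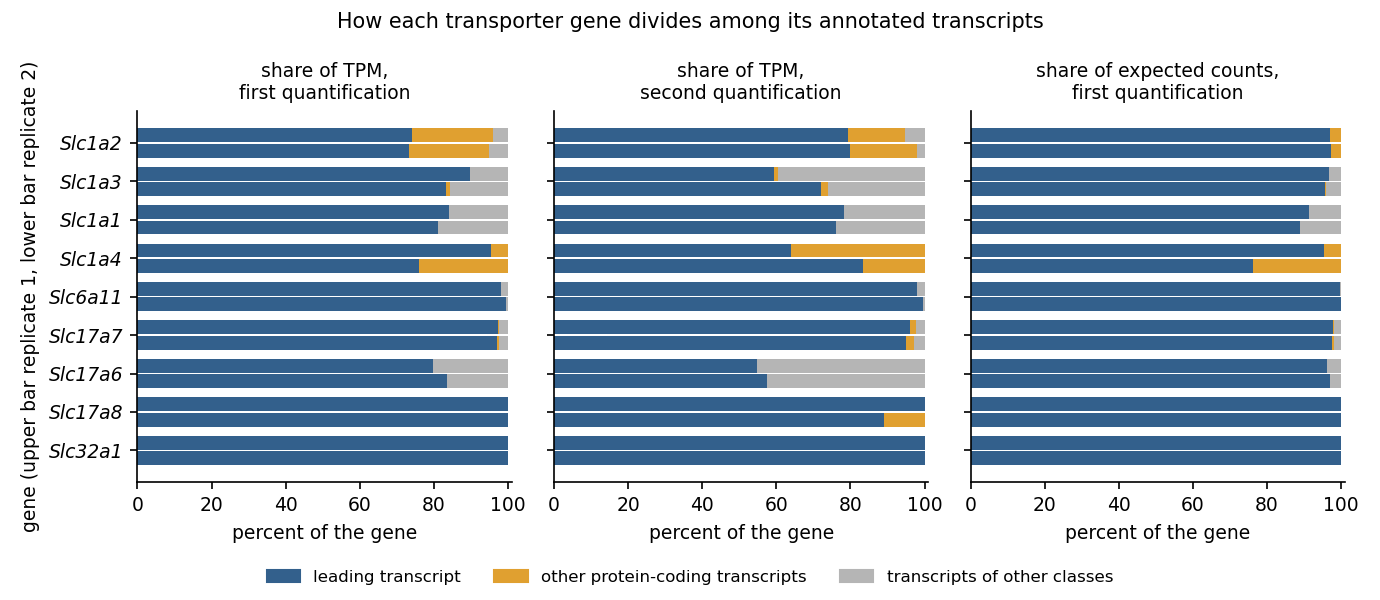
Percent of each transporter gene in its leading transcript (blue), in other protein-coding transcripts (yellow) and in transcripts of other classes, such as retained introns (grey), with replicate 1 in the upper and replicate 2 in the lower bar of each pair; the panels show TPM in the first quantification, TPM in the second, and expected counts in the first. Blue exceeds 50% in every bar, and the grey part of Slc1a3 and Slc17a6 is much wider in the second quantification than in counts.

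The coding sequences of the leading transcripts were compared to see how alike the members are. Slc17a7 and Slc17a6 matched at 72.5% of 1674 aligned bases, and Slc17a8 matched them at 71.5% and 71.7%. The longest exactly shared stretch in this family was 25 bases, between Slc17a6 and Slc17a8. In the Slc1 family identity ran from 60.2% (Slc1a2 and Slc1a4) to 68.2% (Slc1a3 and Slc1a1), and the longest shared stretch was 20 bases, in that last pair. Counting reads shared between members was not possible from the tables.

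A second quantification deposited for the same libraries, made from the read files per the notes deposited with it, gave TPM values that were higher in replicate 2 for all 9 genes, from 1.18-fold for Slc17a6 to 1.62-fold for Slc6a11. Slc1a2 stood at 636.0 and 896.3 TPM there and Slc17a7 at 382.3 and 572.0 TPM. The shift was not particular to transporters: the median of 12781 protein-coding genes was 1.45-fold higher in replicate 2, against 1.03-fold in the first quantification. Beside it, the misc_RNA class of short noncoding RNAs took 38.4% of the second TPM in replicate 1 and 11.5% in replicate 2. The estimated counts of the second quantification, scaled by TMM, gave log2 ratios from -0.18 (Slc6a11) to 0.24 (Slc17a6), and again 0 of 9 past the 25% difference.

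Around the carriers, the enzymes of glutamate and GABA metabolism were all detected. The 10 listed stood above 1 TPM, and 0 of 10 differed by 25% between the animals, beside 13.0% of the 14163 genes. Glul, the astrocytic glutamine synthetase that turns imported glutamate into glutamine, was highest at 1003.86 and 981.96 TPM (992.9 ± 15.5). Gad1, a GABA-producing decarboxylase, stood at 228.17 and 262.56 TPM (245.4 ± 24.3), above the 61.5 TPM of the GABA loader Slc32a1. Got1, a cytosolic aspartate aminotransferase, stood at 187.49 and 189.96 TPM (188.7 ± 1.75), and Gls2, a glutaminase, was lowest at 14.68 and 14.99 TPM (14.8 ± 0.219).

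The carriers that feed these pathways had a lower median, at 39.3 TPM against 127.7 TPM for the enzymes, though the ranges of the 2 lists overlapped. Of 10 glutamine, aspartate-glutamate and cystine-glutamate carriers, all stood above 1 TPM, led by the mitochondrial glutamate carrier Slc25a22 (109.80 and 122.00 TPM), the aspartate-glutamate carrier Slc25a12 (70.27 and 76.34 TPM) and Slc3a2 (69.23 and 69.27 TPM), the heavy chain of the cystine-glutamate exchanger. Slc25a13, another aspartate-glutamate carrier, was lowest at 1.54 and 1.65 TPM. The glutamine carrier Slc38a2, at 48.79 TPM in replicate 1 against 37.25 TPM in replicate 2, was the 1 gene of the 10 past 25% (log2 ratio 0.43). The share of the 14163 genes past 25% was 13.0%.

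Other listed carriers, most of them of the same families, were mostly low. The 11 include Slc18a2 and Slc18a3, of a vesicular carrier family to which none of the 9 genes belongs. Of the 11, 6 reached 1 TPM in both animals, Slc18a3 among them. The median of the 11 was 1.39 TPM, the level of Slc18a3, against 47.6 TPM for the 9 transporters. The highest were the glycine carrier Slc6a9 (21.55 and 25.89 TPM), the lysosomal sialic acid carrier Slc17a5 (7.26 and 9.27 TPM) and the GABA carrier Slc6a13 (6.30 and 7.88 TPM). Slc6a5, the glycine carrier of glycinergic neurons, was lowest, with 0 and 5 counts. Of the 6 with at least 50 normalised counts, 2 lay past 25%, both higher in replicate 2: Slc1a5 (log2 ratio -0.50) and Slc6a13 (-0.37). Of all 14163 genes with that many counts, 13.0% lay past 25%. Arl6ip5, a protein that binds the Slc1a1 carrier, stood at 84.96 and 89.18 TPM, and Ajuba, which binds that of Slc1a2, at 0.62 and 0.74 TPM.

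**Figure D5:**
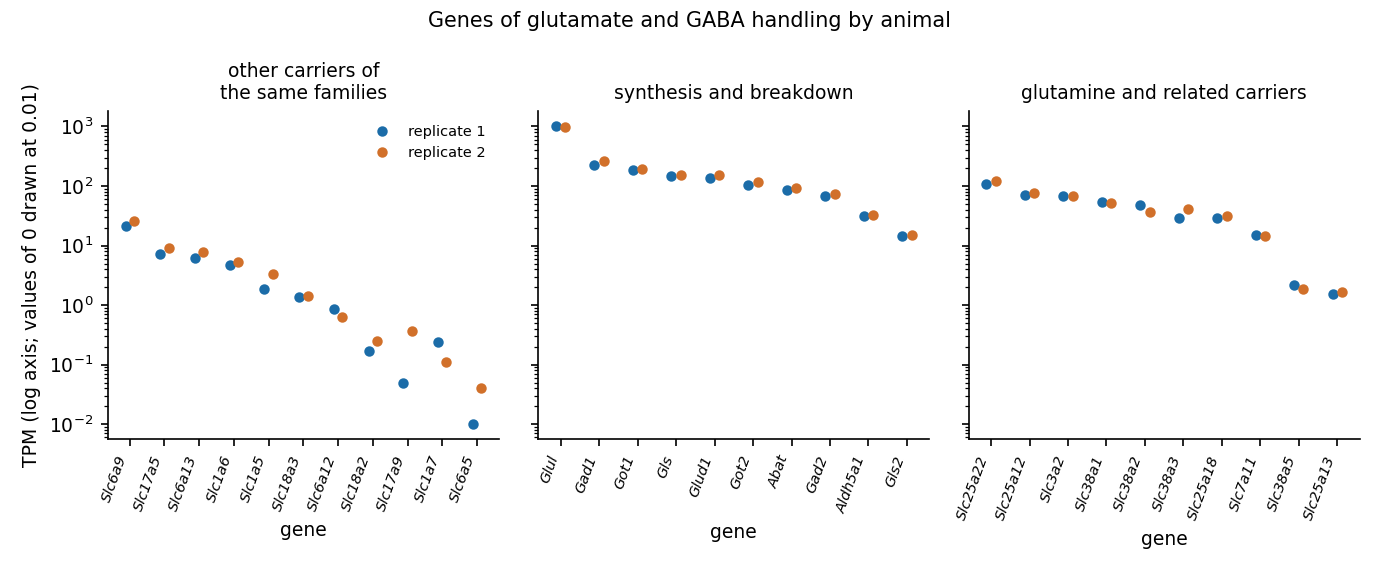
TPM on a log axis for genes of 3 lists (other carriers, of the same families apart from Slc18a2 and Slc18a3, enzymes of glutamate and GABA metabolism, glutamine and related carriers), ordered by mean within each panel, with replicate 1 in blue and replicate 2 in orange. The enzymes lie between 14.8 TPM (Gls2) and 992.9 TPM (Glul) on average, and the widest gaps between animals are in carriers under 1 TPM.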

How the data were processed

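Per the file headers and the notes deposited with them, the authors deposited expected counts, TPM and FPKM per gene and per transcript for each library, with each transcript's percent of its gene, from alignments to the transcriptome on mm10 with GENCODE M21. A second deposited transcript table holds estimated counts and TPM made from the reads. The sources used here do not name programs, versions, settings or whether counting used the strand, which leaves genes overlapping a member uncertain.

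Members were taken by symbol. Between-animal ratios used deposited expected counts of genes without 356 ribosomal RNA genes, spike-ins, tRNA or phiX entries (libraries of 24688669 and 27440152), TMM scaling in edgeR 4.0.16, a prior count of 2 and a mean of at least 50 normalised counts. The prior count moves genes with few counts toward equality. Reads of the Cast allele were assigned against mm10. Coding sequences were cut from the GENCODE M21 transcripts and aligned globally. Calculations were tested on simulated data. Transcripts with at least 5% of a gene in either animal by either quantification were named, as were the 3 highest genes and the lowest of each list. Alternatives were DESeq2 1.42.0 size factors, spike-in scaling, a prior count of 0.5, no filter, FPKM, log2(TPM + 1), protein-coding TPM, the second table and each animal alone. The members and lists were chosen with earlier results of these data known. Intervals came from scipy 1.17.1, tables from pandas 2.3.3 under Python 3.11.15, and scaling from R 4.3.3.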

Additional observations from a re-analysis of the deposited data

How the results depend on the processing

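With 2 animals, no spread beyond 1 pair could be had, and counting error was widest for Slc17a8. No paired analysis was possible because there is 1 group. Positions in the order of levels that stayed as reported numbered 7 of 9 in the second table, where Slc1a4 and Slc17a6 changed places, 7 to 9 with an animal left out, and 9 by FPKM. The Slc1a2 to Slc1a3 ratio was 3.90 in the second table and 13.3 by expected counts. The Slc17a7 to Slc17a6 ratio was 26.7 and 28.6 in these settings, and the Slc17a7 to Slc32a1 ratio 7.75 in the second table. An alternative chosen after seeing the data, the leading transcript alone, gave 4.76 for Slc1a2 to Slc1a3 and 41.5 for Slc17a7 to Slc17a6. In all of them Slc1a2 and Slc17a7 were the higher genes. The count of 0 genes past the 25% difference held with DESeq2 size factors, spike-in scaling, no filter and the second table. By log2(TPM + 1) the ratios of Slc1a2, Slc1a3 and Slc17a7 left their counting intervals, at -0.06, -0.20 and -0.09. Those of the other 6 genes stayed within theirs. The leading transcript was the same for 9 of 9 genes in the second table, by counts and in each animal. Restricting TPM to protein-coding genes, which held 49.3% and 50.6% of it, raises all 9 levels by construction. It put Slc1a2 at 1609.7 TPM.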

Other observations

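Annotated genes that overlap the members held few counts. Gm37310, on the strand of Slc1a3, had 67 and 114 expected counts beside 8929 and 10452 for Slc1a3. On the opposite strand, 4430402I18Rik had 70 and 82 counts beside 2817 and 2912 for Slc1a1, and Gm14205 had 2 and 6 counts beside 2738 and 3375 for Slc32a1. Gm13872, opposite Slc1a2, and Mir7055, on the strand of Slc17a7, had 0 counts in both libraries.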
